A study of Mus musculus with 6 samples.

Results

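Axon guidance ligands and receptors of the semaphorin, ephrin, Slit and netrin systems were examined in mouse trigeminal ganglion, the sensory ganglion of the head. The genes were taken by name and gene type alone: all listed protein-coding genes named as semaphorins of classes 3 to 7, plexins A, B and D, neuropilins, Eph receptors, ephrins, Slits, Robos, netrins, Unc5 receptors or Dcc. This gave 65 of the 16415 listed genes, 33 of them ligands and 32 receptors. The study, which by its title concerns SETDB2, KLF4, IDE and CGRP in migraine, compared 3 libraries labelled SETDB2-up with 3 labelled NC-up. All 6 carry the genotype WT, and the labels give no strain, age, sex or dose and do not say what the names of the treatments stand for or which cells the treatment reaches. The labels do not say whether each library is a different animal or pool, and the p-values reflect only library-to-library spread, which may be technical. Values are normalised read counts, which the authors made by scaling each library's counts with 1 factor. Unless stated otherwise, 3 values in a row belong to libraries 1, 2 and 3 of a group.

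Guidance cues are secreted or membrane-bound proteins that growth cones read through receptors on the axon. Class 3 semaphorins are secreted and bind neuropilins, which signal through plexins, whereas most other semaphorins are membrane proteins that bind plexins directly. Ephrins are held at the cell surface, the A class by a lipid anchor and the B class by a transmembrane segment, and their Eph receptors are tyrosine kinases. Slits repel axons through Robo receptors, and netrins act through Dcc and the Unc5 receptors. In adult ganglia many of these genes are also used by glia, vessels and connective tissue.

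The recovered whole reads summed to between 20355707 and 23501386 in SETDB2-up libraries and between 19334997 and 23395693 in NC-up libraries, and the 65 genes held between 95 and 46215 reads over the 6 libraries. Setdb2 itself had 113, 97.6 and 104 in SETDB2-up, against 69.9, 58.4 and 71.5 in NC-up (log2 fold change 0.65 ± 0.19 SE, limma adjusted p = 0.0253), a rise that did not pass after the GC correction described below (0.48, adjusted p = 0.158). Its call was also lost when NC-up library 2 or any single SETDB2-up library was left out. Markers of sensory neurons, satellite glia and Schwann cells were present in every library, with none of the 22 at 0. SETDB2-up libraries 1 and 2 stood apart by liver transcripts: the sum of 10 liver markers, of which 7 rose, was 2662, 6307 and 69.6 in SETDB2-up and 36.0, 29.7 and 38.4 in NC-up, and 8 of the 10 were at 0 in at least 1 library. The summed normalised reads of 6 endothelial markers ranged from 2449 to 2606 in SETDB2-up and from 2880.0 to 3025 in NC-up. Of these markers Cldn5 and Egfl7 fell, neither after GC correction (adjusted p = 0.22 and 0.323), while Cdh5, Kdr, Tek and Pecam1 did not pass and Pecam1 averaged 409 in SETDB2-up and 377 in NC-up. For 5 markers of mural cells, the sums ranged from 3544 to 3677 in SETDB2-up and from 3187 to 3639 in NC-up. Of these Rgs5 rose, though not after GC correction, and none fell. The sums of 6 fibroblast markers, of which 3 fell, ranged from 18942 to 21894 in SETDB2-up and from 21577 to 25462 in NC-up. Col1a1, Col1a2 and Fbln1 fell, also after GC correction (limma adjusted p = 0.0190, 0.0329 and 0.0449), while Dcn, Lum and Pdgfra did not pass. Sums of 5 keratinocyte markers, of which 4 fell, ranged from 114 to 127 in SETDB2-up and from 173 to 518 in NC-up. Krt14 and Krt5 were at 0 in at least 1 library. Sums of 5 measured skeletal muscle markers, of which 3 fell, ranged from 46.8 to 112 in SETDB2-up and from 97.5 to 258 in NC-up. In bulk tissue, fewer cells of a type and less RNA per cell cannot be told apart.

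Of the 65 guidance genes, 3 rose and 12 fell in SETDB2-up relative to NC-up, and 50 did not pass (limma on log2(value + 1), adjusted p under 0.05 over all 16387 tested genes). All 65 passed the filter on low values. The share called was 23.1%, against 16.4% of all tested genes, with 18.5% of members falling against 8.71% of all genes and 4.62% rising against 7.71%. The falls were mostly among ligands, 11 of 33, and included 9 semaphorins and the ephrins Efna1 and Efnb1. A single receptor fell, Plxnd1. The rises were the receptors Epha5 and Epha6 and the ligand Sema3e. The changes were small, between 13.7% and 48.5% in size. The median log2 fold change of the 65 genes was -0.13, against 0.00 over all tested genes, and 44 of the 65 lay below 0. Fold changes followed the base composition of the transcripts, and after a correction for GC content 1 member rose (Epha6) and none fell (limma adjusted p under 0.05). Of all genes with a GC value, 5.35% were called at that adjusted threshold, 1.8% rising and 3.55% falling. By unadjusted p under 0.05 the corrected values gave 7 higher and 10 lower members. No share of all genes at unadjusted p is given here, so those member counts cannot be read as a result about the group. EdgeR without that correction called 3 rises and 13 falls, against 16.4% of all genes (7.37% rising and 8.99% falling), the added one being Plxnb1. Without SETDB2-up library 1, 1 member rose and 7 fell, with 1093 genes changed in all, against 2690 with all libraries. Without library 2, 1 rose and 9 fell, with 1573 genes changed in all. Without library 3, 5 rose and 14 fell, with 3333 genes changed in all. Leaving out both libraries 1 and 2, which hold the liver transcripts, left 1 SETDB2-up library. In that fit all 15 called members kept the sign of their log2 fold change, but most lost the call.

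**Figure D1:**
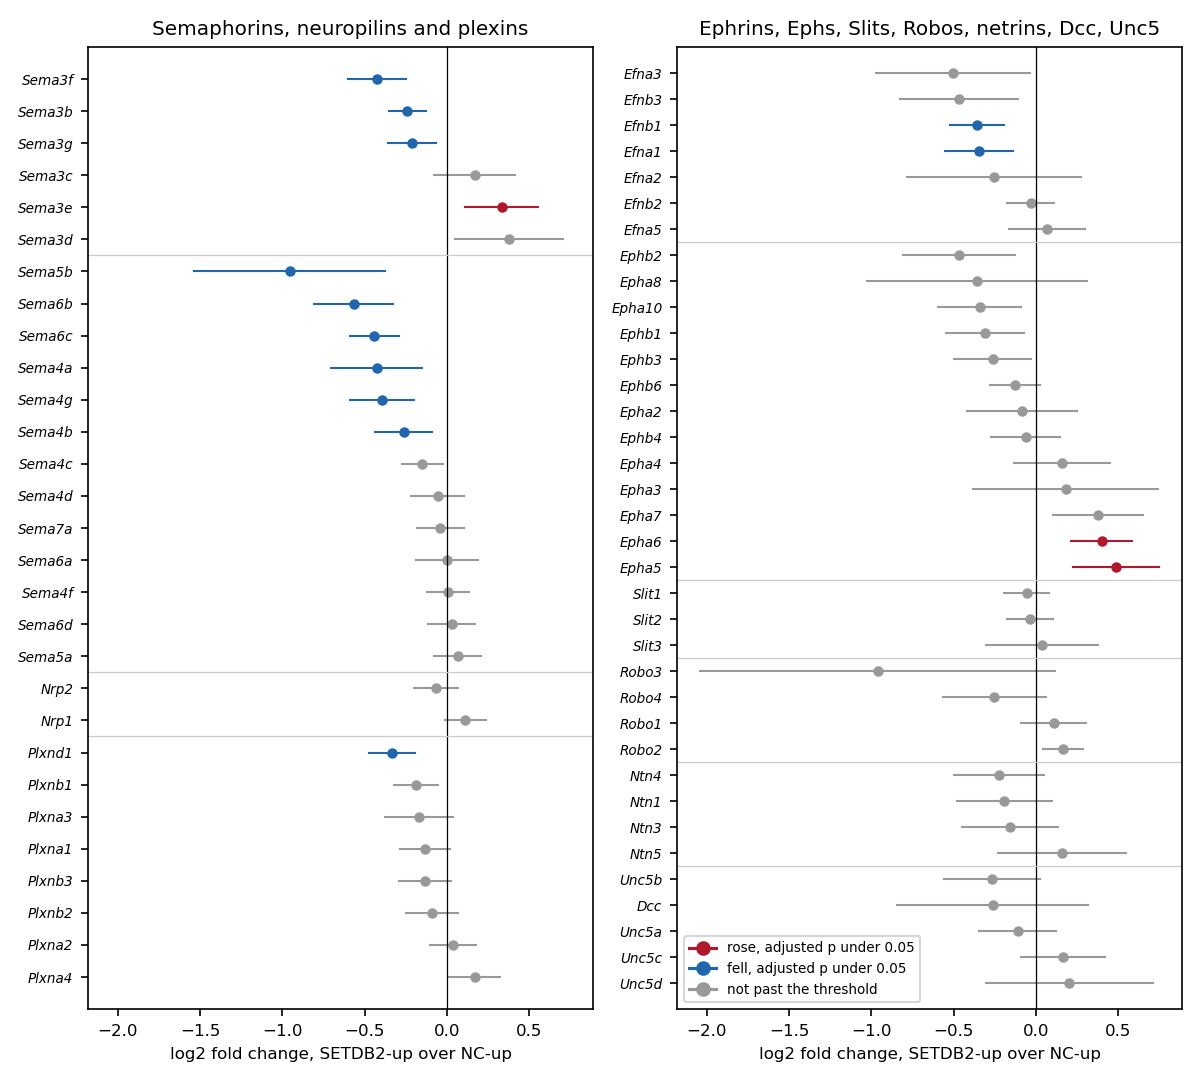
Log2 fold change (SETDB2-up over NC-up, horizontal axis) of each of the 65 guidance genes with its 95% confidence interval from limma, grouped by role. The 12 blue points passed the test below 0, the 3 red points above 0, and the 50 grey points did not pass.

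Levels between genes were compared per length, as RPKM computed from the recovered reads and the longest coding transcript, averaged over the 6 libraries. Sema3b, a secreted semaphorin, had the highest level at 104, followed by Sema7a, which is anchored to the membrane by a lipid, at 67.5. Sema4c (34.1), Sema4f (30.8), Sema6c (30.1) and Slit1 (30.0) came next and close to each other. Among receptors the highest levels were those of Nrp1 (28.9), Plxnd1 (28.4), Ephb6 (25.2), an Eph receptor without kinase activity, Robo2 (18.5) and Epha6 (16.1). Netrins and their receptors were low, from 0.205 for Dcc to 4.42 for Unc5a. The least abundant member was Robo3, at 0.156.

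**Figure D2:**
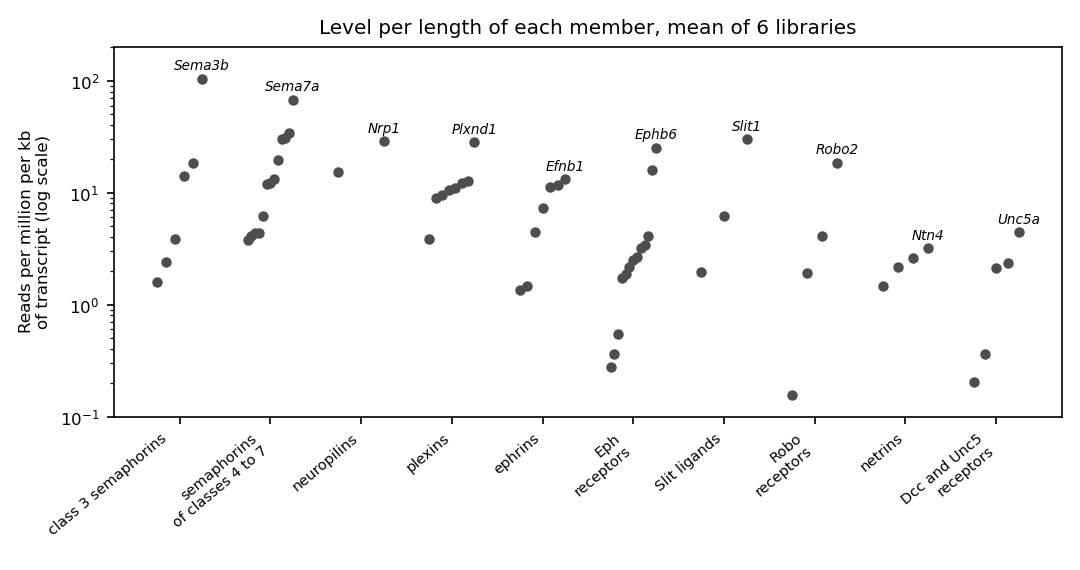
Level of each member per length (RPKM, log scale, mean of 6 libraries) by role group, with the highest member of each group named. Sema3b at 104 is the highest and Robo3 at 0.156 the lowest.

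Promoter sequence was looked at for members that moved in opposite directions. RefSeq promoters (GRCm38.p6) were matched for 55 of the 65 genes, and the 250 bases before the start site nearest to the listed gene start were used. The motif searched was CACCC, or GGGTG on the other strand, which is the core of the CACCC box bound by Krüppel-like factors such as KLF4 of the series title. The motif occurred in 9 of 10 matched promoters of members that fell, in 2 of 3 of members that rose and in 31 of 42 of the others, against 57.6% of 12869 promoters of tested genes. For 19 of the 55 members the window lay more than 250 bases from the listed gene start, by up to 635631 bases for Robo1, and by 5380.0 bases for Epha6, the member that rose without a motif. A limit of 250 bases was also set, chosen after the data were seen. Among members that fell, it removed Plxnd1 (334 bases), the only matched one without a motif, and Sema4g (601 bases, 3 matches). Within the limit the motif occurred in 8 of 8 members that fell, 1 of 1 that rose and 20 of 27 others. The share of 10402 tested genes was 57.0%, and the 8 of 8 rests on the removal of Plxnd1. The median number of CG dinucleotides in the window was 16 for members that fell, 15 for members that rose and 15 for all tested genes. The median GC content of the window was 64.6% for members that fell, 62.4% for those that rose and 66.2% for the others. For all tested genes it was 59.2%, and the part of this gap in the motif shares was not tested. A match describes the letters only. Klf4 itself fell (-0.71 ± 0.16 SE, limma adjusted p = 0.00612). The 4 windows shown end at the listed gene start. They are those of Sema6c, which had the smallest p, its class member Sema6b and the ephrin Efnb1, which fell, and Sema3e, which rose. Capitals mark CACCC or GGGTG, and each is read 5′ to 3′ on the strand of the gene.
Sema6c promoter (chr3:95160170-95160419, plus strand): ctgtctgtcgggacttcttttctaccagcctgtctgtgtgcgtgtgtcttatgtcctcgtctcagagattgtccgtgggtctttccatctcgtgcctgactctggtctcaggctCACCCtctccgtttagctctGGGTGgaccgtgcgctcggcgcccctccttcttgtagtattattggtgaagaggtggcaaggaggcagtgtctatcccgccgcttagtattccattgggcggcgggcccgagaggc
Sema6b promoter (chr17:56140344-56140593, minus strand): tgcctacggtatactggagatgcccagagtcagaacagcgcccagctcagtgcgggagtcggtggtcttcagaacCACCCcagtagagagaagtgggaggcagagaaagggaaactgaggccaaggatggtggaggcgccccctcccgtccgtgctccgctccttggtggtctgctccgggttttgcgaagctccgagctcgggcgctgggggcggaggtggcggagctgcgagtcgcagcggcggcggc
Efnb1 promoter (chrX:99135811-99136060, plus strand): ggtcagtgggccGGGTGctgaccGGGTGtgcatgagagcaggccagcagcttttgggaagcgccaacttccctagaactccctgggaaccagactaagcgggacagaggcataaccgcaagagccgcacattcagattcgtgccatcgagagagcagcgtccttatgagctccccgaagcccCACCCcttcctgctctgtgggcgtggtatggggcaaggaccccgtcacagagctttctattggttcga
Sema3e promoter (chr5:14025026-14025275, plus strand): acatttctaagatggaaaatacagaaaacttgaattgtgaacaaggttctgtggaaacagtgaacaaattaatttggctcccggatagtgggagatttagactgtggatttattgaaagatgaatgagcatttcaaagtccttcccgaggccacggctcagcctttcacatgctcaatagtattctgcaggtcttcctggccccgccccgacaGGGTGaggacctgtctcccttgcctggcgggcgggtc
Sema6c holds 2 motif matches, Sema6b 1, Efnb1 3 and Sema3e 1. The windows hold 15, 20, 13 and 7 CG dinucleotides in the order shown.

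Of the 6 class 3 semaphorins among the listed genes, 3 fell, 1 rose and 2 did not pass (coordinates are those of the deposited table, GRCm38). Sema3b (chromosome 9, 107597674 to 107609241) and Sema3f (chromosome 9, 107681499 to 107710475) both fell. Sema3f, a secreted repellent that acts through Nrp2, had 854, 886 and 812 in SETDB2-up, against 996, 1188 and 1255 in NC-up. All 3 SETDB2-up values lay below all 3 NC-up values, with means of 851 ± 37.1 in SETDB2-up and 1146 ± 134 in NC-up (SD, n = 3 each). On the log2 scale the difference was -0.42 ± 0.08 (SE; limma adjusted p = 0.00235). Sema3b had 6493, 6793 and 7010.2 in SETDB2-up, against 7971, 7902 and 8107 in NC-up. These groups did not overlap either (-0.24 ± 0.05 SE, limma adjusted p = 0.00487). Sema3g (chromosome 14, 31217873 to 31230352), which vessels also express, had 1564, 1577 and 1712 in SETDB2-up, against 1750.1, 1839 and 2044 in NC-up. It fell by less (-0.21 ± 0.07 SE, limma adjusted p = 0.0442), and its call was lost without NC-up library 2 (-0.23, adjusted p = 0.0891), NC-up library 3 (-0.15, 0.197), SETDB2-up library 1 (-0.19, 0.176) or SETDB2-up library 2 (-0.20, 0.139). The summed endothelial markers given above were lower in SETDB2-up, and their part in this fall was not tested.

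Sema3c, Sema3d and Sema3e lie within a stretch of chromosome 5, and their fold changes were all above 0. Sema3e (chromosome 5, 14025276 to 14256689), which binds Plxnd1 without a neuropilin, had 598, 583 and 643 in SETDB2-up, against 438, 439.6 and 585 in NC-up. Its groups overlapped, since NC-up library 3 lay just above SETDB2-up library 2. Sema3e rose (0.33 ± 0.11 SE, limma adjusted p = 0.0395), a call that was lost when any library other than NC-up library 3 was left out (0.26 to 0.36, adjusted p 0.0691 to 0.162). Sema3d had 237, 232 and 224 in SETDB2-up, against 206, 132 and 206 in NC-up, with NC-up library 2 the lowest, and did not pass (0.38 ± 0.16 SE, limma adjusted p = 0.109). Sema3c did not pass either (0.17 ± 0.12 SE, limma adjusted p = 0.361), although its SETDB2-up values of 322, 274 and 270.4 all lay above 262, 240.4 and 267 in NC-up. Transcripts of the chromosome 5 genes had a GC content of 39.2% to 42.7%, against 57.9% for Sema3b and 58.4% for Sema3f. After GC correction none of the 6 passed (Sema3f -0.24, adjusted p = 0.107, Sema3b -0.07, adjusted p = 0.399, Sema3e 0.15, adjusted p = 0.476).

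Among the 13 semaphorins of classes 4 to 7, which are membrane proteins, 6 fell and 7 did not pass. Sema6c (chromosome 3, 95160420 to 95174050) had 1990.2, 2252 and 2142 in SETDB2-up, against 2966, 3120.2 and 2602 in NC-up. The groups did not overlap, with means of 2128 ± 131 in SETDB2-up and 2896 ± 266 in NC-up (SD, n = 3 each). Sema6c had the smallest p of the 65 genes (-0.44 ± 0.07 SE, limma adjusted p = 0.000418), and it passed without any single library. Sema6b (chromosome 17, 56123085 to 56140343), of the same class, had 275, 255 and 285 in SETDB2-up, against 357, 463 and 395 in NC-up, again without overlap (-0.57 ± 0.11 SE, limma adjusted p = 0.00256). Class 6 semaphorins bind class A plexins. The other members of the class, Sema6a and Sema6d, had overlapping groups and log2 fold changes with 95% intervals of -0.19 to 0.19 and -0.12 to 0.17. Sema6b and Sema6c transcripts had a GC content of 63.5% each, the highest of the 65, and those of Sema6a and Sema6d 48.6% and 49.0%. After GC correction Sema6c was at -0.12, adjusted p = 0.317, and Sema6b at -0.25, adjusted p = 0.204.

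In class 4, Sema4g, Sema4a and Sema4b fell. Sema4g (chromosome 19, 44988743 to 45003397) had 499.7, 551 and 451 in SETDB2-up, against 661, 689.5 and 618 in NC-up (-0.39 ± 0.09 SE, limma adjusted p = 0.00734). Its groups were apart, and it passed without any single library. Sema4a (chromosome 3, 88435959 to 88461182), known for roles in immune cells as well as axons, had 231, 263 and 199.9 in SETDB2-up, against 357, 274 and 302 in NC-up (-0.43 ± 0.13 SE, limma adjusted p = 0.0332), and lost its call without NC-up library 1 or 3 or SETDB2-up library 1 or 3 (-0.32 to -0.44, adjusted p 0.0651 to 0.124). Sema4b (chromosome 7, 80186870 to 80226646) had 849, 963 and 914 in SETDB2-up, against 1095, 1209 and 978 in NC-up (-0.26 ± 0.08 SE, limma adjusted p = 0.0362). All 3 SETDB2-up values were the lower ones, but the call was lost without NC-up library 1 (-0.26, adjusted p = 0.0716), NC-up library 2 (-0.19, 0.185) or SETDB2-up library 1 (-0.22, 0.188). Sema4c had 2605, 2651 and 2565 in SETDB2-up, against 3048, 2897 and 2746 in NC-up and did not pass (-0.15 ± 0.06 SE, limma adjusted p = 0.0913). Sema4d and Sema4f had overlapping groups and 95% intervals of -0.22 to 0.10 and -0.12 to 0.13. After GC correction Sema4g stood at -0.24, adjusted p = 0.162, Sema4a at -0.29, adjusted p = 0.247 and Sema4b at -0.13, adjusted p = 0.398.

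Sema5b (chromosome 16, 35541154 to 35664261), a semaphorin with thrombospondin repeats, showed the largest called difference and the widest spread. It had 229, 215 and 230.2 in SETDB2-up, against 727, 564 and 203 in NC-up. NC-up libraries 1 and 2 were high, while NC-up library 3 lay below all 3 SETDB2-up libraries. Its fall (-0.96 ± 0.28 SE, limma adjusted p = 0.0231) rested on those 2 libraries, and the call was lost without NC-up library 1 (-0.59, adjusted p = 0.112), NC-up library 2 (-0.77, 0.132), SETDB2-up library 1 (-0.97, 0.0895) or SETDB2-up library 2 (-0.92, 0.0542). DESeq2 did not call it (adjusted p = 0.106), and after GC correction it was at -0.73, adjusted p = 0.166. Its relative Sema5a did not pass (0.06 ± 0.07 SE, 95% interval -0.08 to 0.20). Sema7a, the most abundant of these classes, had 4123, 4525 and 5019 in SETDB2-up, against 4463, 4594 and 4967 in NC-up, with overlapping groups (-0.04 ± 0.07 SE, limma adjusted p = 0.732).

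**Figure D3:**
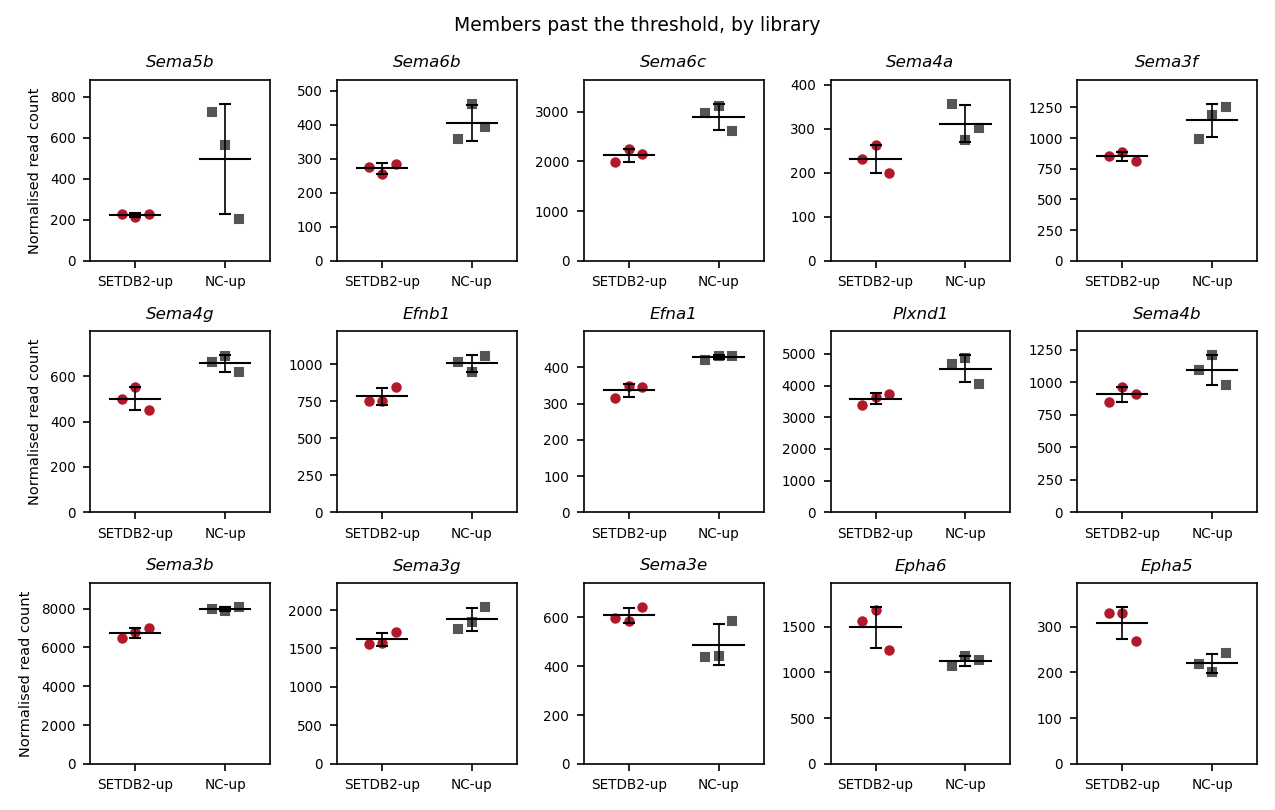
Normalised read counts of the 15 members that passed the test, by library (SETDB2-up circles, NC-up squares), with the mean as a line and the SD as error bars (n = 3 each). The groups do not overlap for 13 of the 15 genes, against 33.3% of all tested genes. The 15 were picked by a test on these same values, so this separation adds no further evidence. Sema5b and Sema3e overlap, and in Sema5b the NC-up points run from 203 to 727.

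Of the semaphorin receptors, 1 of 8 plexins fell and neither neuropilin passed. Plxnd1 (chromosome 6, 115954811 to 115995339), the Sema3e receptor of vessels and neurons, had 3385, 3635 and 3743 in SETDB2-up, against 4672, 4876 and 4064 in NC-up. No SETDB2-up library reached the lowest NC-up library, with means of 3588 ± 184 in SETDB2-up and 4537 ± 423 in NC-up (SD, n = 3 each). Plxnd1 fell (-0.34 ± 0.07 SE, limma adjusted p = 0.00251) and passed without any single library, but not after GC correction (-0.09, adjusted p = 0.42) with a transcript GC content of 60.8%. The part of the lower endothelial marker sum in this fall was not tested. Plxnb1, a receptor for class 4 semaphorins, had 1500.0, 1461 and 1557 in SETDB2-up, against 1766, 1668 and 1707 in NC-up, without overlap. It narrowly missed the threshold (-0.19 ± 0.06 SE, limma adjusted p = 0.0513), and passed in edgeR with TMM factors (adjusted p = 0.0465), in DESeq2 (adjusted p = 0.0363) and in limma without SETDB2-up library 3 (-0.21, adjusted p = 0.0284). EdgeR with RLE factors gave an adjusted p just above the threshold, and after GC correction the value was -0.03, adjusted p = 0.854. Plxna4, through which class 3 and class 6 semaphorins signal, had 3651, 3999 and 3140.1 in SETDB2-up, against 3272, 3260.0 and 3036 in NC-up, with SETDB2-up library 3 inside the NC-up range. It did not pass (0.17 ± 0.07 SE, limma adjusted p = 0.128), but passed without that library (0.26, adjusted p = 0.00375), and was at 0.18, adjusted p = 0.168 after GC correction. The other 5 plexins had log2 fold changes between -0.17 ± 0.10 (SE, Plxna3) and 0.04 ± 0.07 (SE, Plxna2). Nrp1, the receptor shared with vascular growth factors, had 2188, 2260.1 and 2256 in SETDB2-up, against 2062, 2076 and 2067 in NC-up. All SETDB2-up values were the higher ones, yet the difference did not pass (0.11 ± 0.06 SE, 95% interval -0.01 to 0.23, limma adjusted p = 0.21). Nrp2, the partner of Sema3f, had 2106, 2173 and 2005 in SETDB2-up, against 2209.9, 2325 and 2049 in NC-up, with a log2 fold change of -0.07 ± 0.06 (SE).

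Of the 7 listed ephrins 2 fell and 5 did not pass, and of the 13 listed Eph receptors 2 rose and 11 did not pass. Efnb1 (chromosome X, 99136061 to 99149022), a transmembrane ephrin, had 750.5, 755 and 849.5 in SETDB2-up, against 1014, 947 and 1059 in NC-up. The groups were apart, and Efnb1 fell (-0.36 ± 0.08 SE, limma adjusted p = 0.0046). It passed without any single library. Efna1 (chromosome 3, 89271730 to 89280951), a lipid-anchored ephrin of vessels and epithelia, had 316, 348 and 347 in SETDB2-up, against 422, 432 and 431 in NC-up, with a narrow NC-up group. Efna1 fell (-0.35 ± 0.10 SE, limma adjusted p = 0.0209) and lost its call without NC-up library 2 or 3 or SETDB2-up library 1 or 2 (-0.30 to -0.37, adjusted p 0.0515 to 0.123). Efna3, its neighbour on chromosome 3, had 47.5, 58 and 71.4 in SETDB2-up, against 94.3, 69.9 and 86.7 in NC-up and did not pass (-0.51 ± 0.22 SE, limma adjusted p = 0.13). Efnb3 varied more within SETDB2-up than between the groups: it had 425, 274 and 529 in SETDB2-up, against 672, 461 and 526 in NC-up (-0.47 ± 0.17 SE, limma adjusted p = 0.0684), and passed only without SETDB2-up library 3 (-0.68, adjusted p = 0.00246) among the single libraries left out. After GC correction it was at -0.30, adjusted p = 0.351. Efna2, Efna5 and Efnb2 had overlapping groups, with log2 fold changes of -0.25 ± 0.25, 0.07 ± 0.11 and -0.03 ± 0.07 (SE). The part of the lower endothelial and keratinocyte marker sums in the fall of Efna1 was not tested. After GC correction Efnb1 was at -0.18, adjusted p = 0.161, and Efna1 at -0.27, adjusted p = 0.103.

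Epha6 (chromosome 16, 59641433 to 60610911), an ephrin-A receptor, had 1561, 1676 and 1245 in SETDB2-up, against 1067, 1175 and 1133 in NC-up. The SETDB2-up values all lay above the NC-up values, with library 3 nearest to them, and the means were 1494 ± 223 in SETDB2-up and 1125 ± 54.6 in NC-up (SD, n = 3 each). Epha6 rose (0.40 ± 0.09 SE, limma adjusted p = 0.00523) and was the only member called after GC correction (0.34, adjusted p = 0.0284), with a transcript GC content of 48.0%. It passed without any single library, but it did not with SETDB2-up libraries 1 and 2 both left out, a fit in which the lone remaining library is assumed to vary like NC-up (0.15, adjusted p = 0.582). Its exons share 2.02% of their bases with Gm9017 on the opposite strand. Epha5 (chromosome 5, 84054761 to 84417818), also an ephrin-A receptor, had 329, 329 and 268 in SETDB2-up, against 217, 200.2 and 241 in NC-up. The groups were apart, and Epha5 rose (0.49 ± 0.13 SE, limma adjusted p = 0.0123), a call lost without NC-up library 2 (0.42, adjusted p = 0.0561) or SETDB2-up library 1 (0.44, 0.0936) or 2 (0.44, 0.0709) and after GC correction (0.27, adjusted p = 0.2). Its transcript GC content was 40.1%. Epha7 had 319, 349.9 and 351 in SETDB2-up, against 208, 299 and 287 in NC-up and missed the threshold (0.38 ± 0.13 SE, limma adjusted p = 0.0551), passing without NC-up library 2 (0.47, adjusted p = 0.0417). After GC correction Epha7 was at 0.19, adjusted p = 0.468.

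All 5 class B receptors had log2 fold changes below 0 before GC correction and 3 of the 5 after it, and none passed. Ephb2 had 97.8, 114 and 99.9 in SETDB2-up, against 130.3, 149 and 153 in NC-up, with no overlap (-0.47 ± 0.16 SE, limma adjusted p = 0.0538), and passed without NC-up library 1 (-0.54, adjusted p = 0.0409). Ephb1 had 300.2, 265 and 319 in SETDB2-up, against 386, 328 and 383 in NC-up, also without overlap (-0.31 ± 0.11 SE, limma adjusted p = 0.0681), and passed without SETDB2-up library 3 (-0.37, adjusted p = 0.0402). The kinase-inactive Ephb6, the most abundant Eph receptor, had 1704, 1905 and 2026 in SETDB2-up, against 1892, 2173 and 2085 in NC-up, with overlapping groups (-0.13 ± 0.07 SE, limma adjusted p = 0.253). Ephb3 and Ephb4 had log2 fold changes of -0.26 ± 0.11 and -0.06 ± 0.10 (SE). After GC correction Ephb2 was at -0.36, adjusted p = 0.213, and Ephb1 at -0.27, adjusted p = 0.18. Ephb3 was at -0.12, adjusted p = 0.592. The corrected values of Ephb6 (0.08, adjusted p = 0.495) and Ephb4 (0.12, adjusted p = 0.544) lay above 0. The remaining class A receptors, Epha2, Epha3, Epha4, Epha8 and Epha10, lay between -0.36 ± 0.32 (SE, Epha8) and 0.18 ± 0.27 (SE, Epha3). Among them Epha10, another receptor without kinase activity, had 215, 251 and 211 in SETDB2-up, against 270.1, 307 and 281 in NC-up, with no overlap (-0.34 ± 0.12 SE, limma adjusted p = 0.0587; after GC correction -0.13, adjusted p = 0.593).

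No member of the Slit and Robo or of the netrin, Dcc and Unc5 groups passed. Slit1 had 3172, 3724 and 3473 in SETDB2-up, against 3598, 3779 and 3387 in NC-up. Slit2 had 1259, 1293 and 1197 in SETDB2-up, against 1323, 1243 and 1279 in NC-up. Slit3 had 194, 225 and 224 in SETDB2-up, against 153, 238 and 249 in NC-up. The groups of all 3 repellents overlapped, and before GC correction the 95% intervals of their log2 fold changes were -0.19 to 0.08, -0.18 to 0.10 and -0.30 to 0.38. Robo2 (chromosome 16, 73891976 to 75447443), the main Slit receptor here by level per length, had 3641, 3499.9 and 3319 in SETDB2-up, against 3007, 3212 and 3113 in NC-up. Its SETDB2-up values were the higher ones, and it missed the threshold (0.16 ± 0.06 SE, limma adjusted p = 0.0626) but passed in DESeq2 (adjusted p = 0.0411) and in limma without SETDB2-up library 3 (0.20, adjusted p = 0.0185). After GC correction the difference was -0.01, adjusted p = 0.942. Robo1 (0.11 ± 0.09 SE), Robo4, which is known from endothelium (-0.25 ± 0.15 SE), and Robo3 (-0.96 ± 0.52 SE) did not pass. Robo3 is a scarce transcript with 6.65, 13.2 and 8.92 in SETDB2-up, against 24.4, 30.6 and 8.94 in NC-up, so its interval was wide (-2.04 to 0.12).

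Ntn1, the ligand that attracts axons through Dcc, had 287, 206 and 249 in SETDB2-up, against 274, 325 and 248 in NC-up, with overlapping groups (-0.19 ± 0.14 SE, limma adjusted p = 0.369). Ntn4, a netrin of basement membranes, had 243, 228 and 192 in SETDB2-up, against 237, 288 and 248 in NC-up (-0.22 ± 0.13 SE, limma adjusted p = 0.257). Ntn3 was tight within groups, at 147, 143 and 145 in SETDB2-up, against 160.0, 164 and 162 in NC-up, and did not pass (-0.16 ± 0.14 SE, limma adjusted p = 0.484). Its annotated exons share 1.74% of their bases with Tbc1d24 on the same strand. Ntn5 had a log2 fold change of 0.16 ± 0.19 (SE), and 23.4% of its exon bases lie opposite Sec1. The receptor Unc5b, also of endothelium, had 245, 183 and 278 in SETDB2-up, against 279, 293 and 268 in NC-up (-0.27 ± 0.14 SE, limma adjusted p = 0.204). Unc5a, Unc5c, Unc5d and Dcc had overlapping groups and log2 fold changes of -0.11 ± 0.11, 0.17 ± 0.12, 0.20 ± 0.24 and -0.26 ± 0.28 (SE). Unc5c passed without SETDB2-up library 3 (0.31, adjusted p = 0.0464), and was at 0.03, adjusted p = 0.924 after GC correction. The corrected value of Unc5a lay above 0 (0.18, adjusted p = 0.331).

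Across the 65 members, the log2 fold change ran against transcript GC content, with a Pearson correlation of -0.70 and a Spearman rank correlation of -0.67 across genes, against -0.41 and -0.56 over the 15513 tested genes with a GC value. Genes are not independent replicates, and all points share the same 6 libraries, so these are descriptions. Members had a median GC content of 56.2%, against 50.3% over all tested genes. At a GC content of 60% or more, 4 of 7 members and 44.6% of all genes fell. Between 55% and 60%, 7 of 30 members and 17.3% of all genes fell, and none of these members and 0.320% of all genes rose. Between 50% and 55% 1 of 9 members and 6.43% of all genes fell. From 45% to 50%, 1 of 8 members (Epha6) and 8.78% of all genes rose, with none of those members and 2.72% of all genes falling. Below 45% 2 of 11 members and 23.3% of all genes rose, with none of those members and 1.41% of all genes falling. The median log2 fold change was 0.18 for members and 0.19 for all genes below 45%, and 0.05 and 0.08 between 45% and 50%. It was -0.07 for members and -0.03 for all genes between 50% and 55%, -0.20 and -0.15 between 55% and 60%, and -0.36 and -0.27 at 60% or more. The part of base composition in the separate falls and rises was not tested beyond the correction given above.

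**Figure D4:**
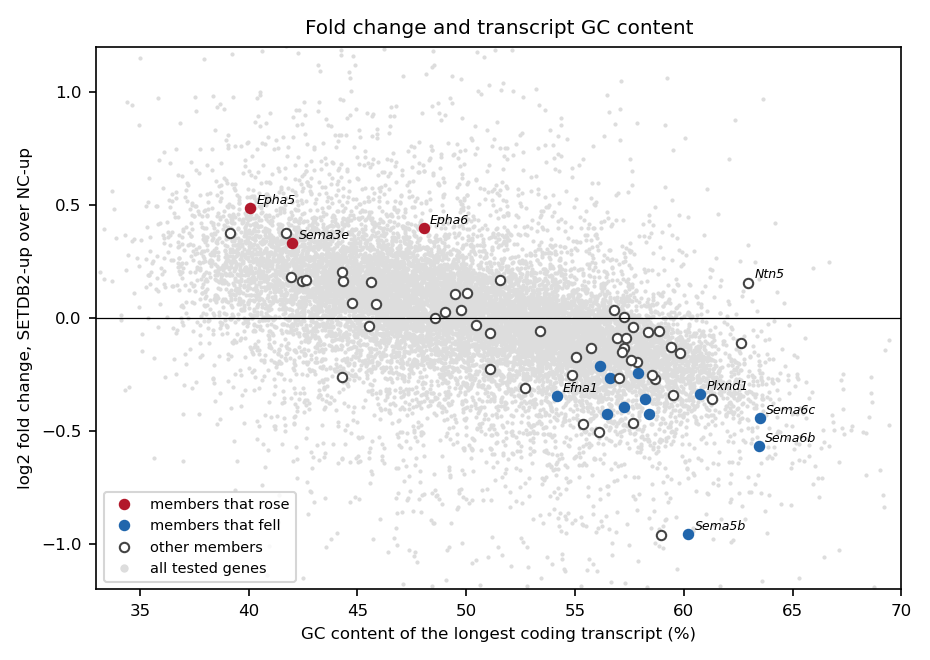
Log2 fold change (SETDB2-up over NC-up) against the GC content of the longest coding transcript in percent, for all tested genes (light grey; those outside the axes are not drawn) and for the 65 members. The members that rose lie between 40.1% and 48.0% GC and those that fell between 54.2% and 63.5%.

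All 26 members whose groups did not overlap can be set against the 33.3% of all tested genes without overlap. SETDB2-up was wholly lower in 19 members and wholly higher in 7, against 16.4% and 16.8% of all tested genes. The wholly higher ones were Epha5, Epha6, Epha7, Sema3c, Sema3d, Nrp1 and Robo2.

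**Figure D5:**
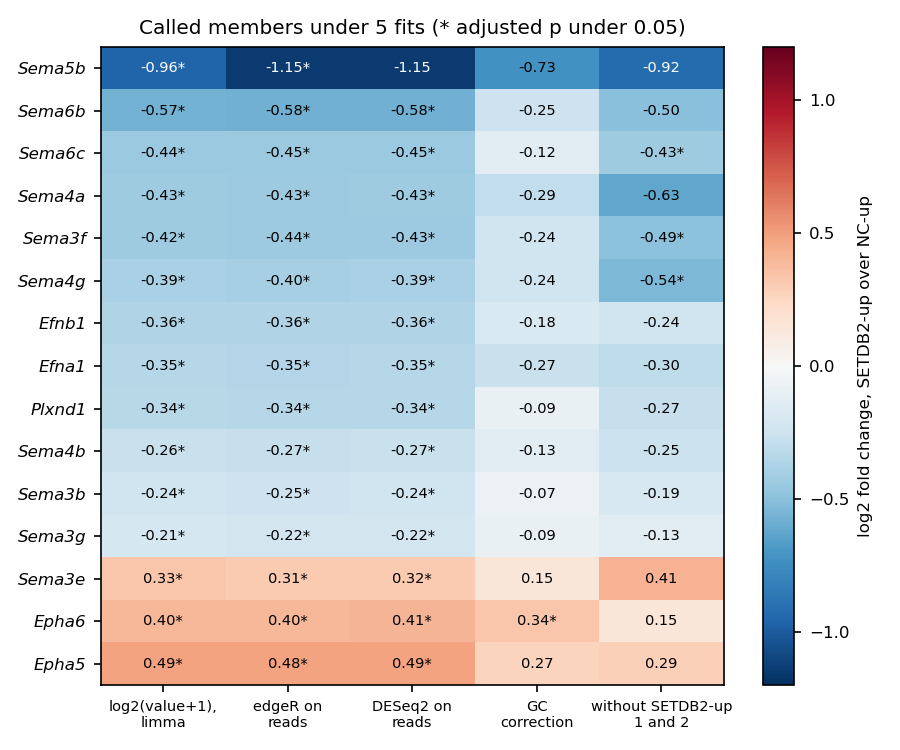
Log2 fold changes (colour and number) of the 15 called members under 5 fits, from left to right limma, edgeR, DESeq2, limma after GC correction and limma without SETDB2-up libraries 1 and 2; an asterisk marks an adjusted p under 0.05. All 15 kept their sign in every column, 1 passed after GC correction (Epha6), and 3 passed without the 2 libraries (Sema3f, Sema4g and Sema6c).

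Guidance genes outside the name rule, among them coreceptors, adhesion partners and the signalling proteins that link receptors to the cytoskeleton, gave 7 rises and 10 falls among 75 measured genes, against 7.71% and 8.71% of all tested genes, with 58 not passing, a median log2 fold change of 0.00 and a median GC content of 50.7%. Among the falls were Evl, an actin regulator of the Ena/VASP family (-0.33 ± 0.06 SE, limma adjusted p = 0.00162), its relative Vasp (-0.32 ± 0.08 SE), Crmp1, a mediator of semaphorin signalling (-0.32 ± 0.06 SE, limma adjusted p = 0.00179), the adhesion protein Flrt1 (-0.28 ± 0.08 SE), the kinase Fyn (-0.26 ± 0.06 SE, limma adjusted p = 0.00477) and the netrin-G Ntng2 (-0.26 ± 0.07 SE). Crmp1 had 1789.8, 1840.0 and 1824 in SETDB2-up, against 2303, 2385 and 2145 in NC-up, and Fyn had 2213, 2179.7 and 2252 in SETDB2-up, against 2596, 2663 and 2716 in NC-up. In both, all 3 SETDB2-up values lay below the NC-up values. The rises included Lrrc4c, the netrin-G ligand of synapses (0.51 ± 0.11 SE, limma adjusted p = 0.00387), Rnd3 (0.40 ± 0.11 SE), the adaptor Nck1 (0.34 ± 0.11 SE), the kinase Pak3 (0.32 ± 0.08 SE), Arhgef12, which acts downstream of class B plexins (0.21 ± 0.06 SE), and the adhesion molecule Nrcam (0.20 ± 0.07 SE). After GC correction 4 of the 75 fell and 1 rose, against 3.55% and 1.8% of all genes with a GC value. Of the genes named here, Fyn (-0.30, adjusted p = 0.00217), Crmp1 (-0.20, adjusted p = 0.0461) and Arhgef12 (0.17, adjusted p = 0.0492) kept the call. The others lost it. Among the falls, Evl was then at -0.08, adjusted p = 0.458, Vasp at -0.15, adjusted p = 0.229, Flrt1 at -0.21, adjusted p = 0.158 and Ntng2 at -0.10, adjusted p = 0.446. Among the rises, Lrrc4c was at 0.33, adjusted p = 0.0718, Rnd3 at 0.23, adjusted p = 0.237, Nck1 at 0.11, adjusted p = 0.621, Pak3 at 0.08, adjusted p = 0.522 and Nrcam at 0.09, adjusted p = 0.398.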

How the data were processed

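Libraries were made from polyadenylated RNA with a strand-specific kit and sequenced as paired reads of 150 bp, per the labels' protocols. FastQC, HISAT2 and GRCm38 were used, per the submitters' processing notes. For the step from alignments to gene values, the tool, strand setting, annotation and scaling method were not given in the sources used. The unit of the deposited values is a normalised signal, namely gene counts that the authors scaled by 1 factor per library. Undoing that scaling returned whole numbers for 100% of entries, within 0.001.

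Values were tested with limma (3.58.1, R 4.3.3, trend, not robust) on log2(value + 1), over the 16387 genes that reached 1 in 3 or more libraries, with Benjamini-Hochberg adjustment. Fold changes understate the change of low genes. The limma fit without GC correction was tested on simulated counts that held no GC trend. EdgeR (4.0.16) and DESeq2 (1.42.0) were run on the recovered reads. GC content and length came from the longest coding GENCODE M21 transcript (GRCm38) for 15541 genes, all 65 members included, matched by gene identifier or symbol. The correction removed a loess trend (span 0.5) per library. The members, lists and alternatives were chosen with earlier results of these data known. Named members are all that passed, the most abundant and the smallest non-passing p of each role group, and those whose call changed with edgeR or GC correction; other members are given to complete their role groups. Other guidance genes are named among those that passed, up to 6 in each direction by size. Members of these families outside the 65 were not analysed here.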

Additional observations from a re-analysis of the deposited data

How the results depend on the processing

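For members that rose (3) and fell (12), a pseudocount of 0.1, no filter, edgeR with TMM or RLE factors and DESeq2 gave counts within 1.5 times. GC correction gave 1 and 0, and 830 changed genes in all against 2690. Leaving out SETDB2-up libraries 1 and 2 together gave 0 rises and 3 falls, with 540 genes changed. That fit holds 1 SETDB2-up library, assumed to vary like NC-up. Its counts cannot be read as a result about the group. Leaving out 1 library at a time gave 1 to 5 rises, 7 to 14 falls and 1093 to 3333 changed genes, the lowest count without SETDB2-up library 1. Also requiring a minimum fold change gave 1440 changed genes, and 3 rises and 9 falls among members. With the replicate number as a block, 6 members rose and 18 fell, and 3618 genes changed in all, against 2690 without it. With the block and the GC correction together 5 rose, 2 fell and 1681 genes changed in all. The numbers are not shown to pair the libraries: same-numbered libraries deviated together with correlations of 0.0383, 0.0359 and 0.0484, each the highest for its number, which is a hint from the data only. The sign turned for 5 named members that had not passed, under GC correction, with the same values when the block was added: Ephb6 (0.0812), Robo2 (-0.00981), Sema7a (0.123), Slit1 (0.138) and Unc5a (0.182), of which Sema7a and Slit1 passed with the block. It also turned without SETDB2-up libraries 1 and 2 for Sema7a (0.104) and Unc5a (0.0144). Leaving out 1 library at a time gave -0.113 to 0.0292 for Sema7a and -0.111 to 0.00477 for Slit1. Of the values of the 28 named members under these alternatives, 352 kept direction and side of the threshold, 69 lost the call, 12 gained it and 15 turned sign. The cause of these losses was not tested; fewer libraries enter the fits that leave libraries out. Depth limits Robo3, Epha8, Epha3 and Dcc most.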
